A study of Mus musculus with 16 samples.

Results

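The 10 immediate early genes examined were read in 16 pools of mouse molar tooth germs: Egr1, Egr2, Egr3, Fos, Fosb, Jun, Junb, Ier2, Atf3 and Dusp1. Their names were matched to the platform's gene symbols, and each of the 10 genes had 1 probe set that pairs with its symbol alone. They are 10 of 17215 genes tested, and all 10 were above a log2 signal of 5 in every pool. The pools held mandibular molars dissected at embryonic day 14.5 (E14.5), the cap stage, when the tooth bud epithelium folds around the dental mesenchyme. RNA was hybridized on Affymetrix Mouse Gene 1.0 ST arrays, whose probes lie across the whole gene.

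There were 8 pools from Rsk2-/Y embryos and 8 from WT embryos, on the C57Bl6 background. Rsk2-/Y embryos are males that lack RSK2, a kinase downstream of ERK encoded by the X-linked gene Rps6ka3, from which exon 2 was excised. The controls were WT littermate males. A pool held 4 tooth germs by the labels and tissue of 2 embryos by the study's methods, while its litter is not stated. The pool names carry the codes AZN and ABH, whose meaning is not stated either, and 4 pools of each genotype fall in each code. Each pool was taken as an independent sample.

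Immediate early genes are switched on within minutes of a growth factor, neuronal or stress signal, without new protein synthesis. ERK and its downstream kinases, RSK among them, act on transcription factors already present in the cell, such as SRF with its ETS partners and CREB, which then start these genes. EGR1, EGR2 and EGR3 are related zinc finger transcription factors. FOS, FOSB, JUN and JUNB form the dimeric transcription factor AP-1, ATF3 is a stress-induced factor of the wider bZIP family, IER2 is a small nuclear protein, and DUSP1 is a phosphatase that switches MAP kinases off. As the messengers are short-lived, their level can also change while a tissue is being dissected.

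Signal of the targeted gene did not separate the genotypes. Rps6ka3 averaged 10.09 ± 0.28 in Rsk2-/Y pools and 9.99 ± 0.23 in WT pools (log2 signal, SD, n = 8 each), with ranges of 9.74 to 10.40 and 9.61 to 10.22. The array reads the whole gene, so a transcript without exon 2 still gives signal, and this value does not check the labels. Markers of the tissue were read as well, though a signal above 5 is too low a bar to check the tissue. All 11 dental epithelium markers and all 9 dental mesenchyme markers tested were above 5 in every pool, and so were all 13 skeletal muscle markers. The same held for all 6 erythroid, all 6 osteoblast and all 6 neuron and Schwann cell markers tested. Arrays correlated with each other at 0.976 to 0.997.

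Sequences around recognised control elements of immediate early genes are shown for the members that the RefSeq promoter table holds. Of the EGR genes it holds only Egr2, and no test links an element to the signals. The table gives the 250 bases before the start of 7 of the 10 members (Egr2, Fos, Fosb, Jun, Junb, Atf3 and Dusp1). The stretches below hold 30 bases each, 5′ to 3′ on the strand of the gene, in build GRCm38.p6, with the matched element in capitals. The CArG box is the site that SRF binds, TGACGT is the short form (ACGTCA on the other strand) of the palindromic CREB site TGACGTCA, and TGACATCA is the jun1 element of the Jun promoter.
Egr2, CArG box, chr10:67537484-67537513, plus strand: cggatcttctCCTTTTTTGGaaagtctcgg
Egr2, CArG box, chr10:67537787-67537816, plus strand: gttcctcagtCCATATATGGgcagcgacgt
Egr2, short CREB site, chr10:67537801-67537830, plus strand: atatgggcagcgACGTCAcgggtattgaag
Fos, short CREB site, chr12:85473812-85473841, plus strand: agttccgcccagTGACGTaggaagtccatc
Atf3, short CREB site, chr1:191183334-191183363, minus strand: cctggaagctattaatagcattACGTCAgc
Dusp1, CREB site, chr17:26508597-26508626, minus strand: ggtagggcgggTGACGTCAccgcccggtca
Jun, jun1 element, chr4:95052249-95052278, minus strand: aagcctcggggTGACATCAtgggctatttt

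The CArG box was found in the 250 bases before a start of Egr2 alone among these 7 members, at 2 places, which lie before different ones of its 5 starts. It was present in 1.62% of the 27025 genes in the table. The short site TGACGT, searched on both strands, was found in Egr2, Fos, Atf3 and Dusp1, and in 7.29% of genes. The palindrome TGACGTCA contains that short site, and was found in Dusp1, and in 1.77% of genes. TGACATCA, on both strands, was found in Jun and in 3.41% of genes. The EGR site GCGTGGGCG, on both strands, was found in none of the 7 members and in 0.622% of genes, and the AP-1 site TGANTCA in none of the 7 and in 7.82%. These matches describe letters and do not show a bound site. Elements outside the 250 bases were not searched, so a gene without a match here may hold one farther away.

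The log2 signals of the 3 EGR genes varied far more between pools than those of the AP-1 genes did. Within a genotype and code, the SD of the log2 signal was 0.37 for Egr1, 0.61 for Egr2 and 0.45 for Egr3, which lie at the 98.0th, 99.5th and 98.8th percentile of all genes tested. The median gene had an SD of 0.118 on the same scale. Jun had an SD of 0.10 and Junb of 0.089, below that median, and Fos was near it at 0.12. Dusp1 had an SD of 0.21, Fosb and Ier2 of 0.17 each and Atf3 of 0.16. The whole range over 16 pools was 2.74 for Egr2, 2.14 for Egr1 and 1.42 for Egr3, against 0.33 for Fos and 0.49 for Jun. Fos, Fosb and Junb read between 5.99 and 6.67, below the median signal of every array. At such low signals a log2 difference can understate a change, so their SDs do not show steady expression. Jun read 9.58 to 10.06, within the range of Egr1, so its small SD does not rest on a low signal.

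**Figure D1:**
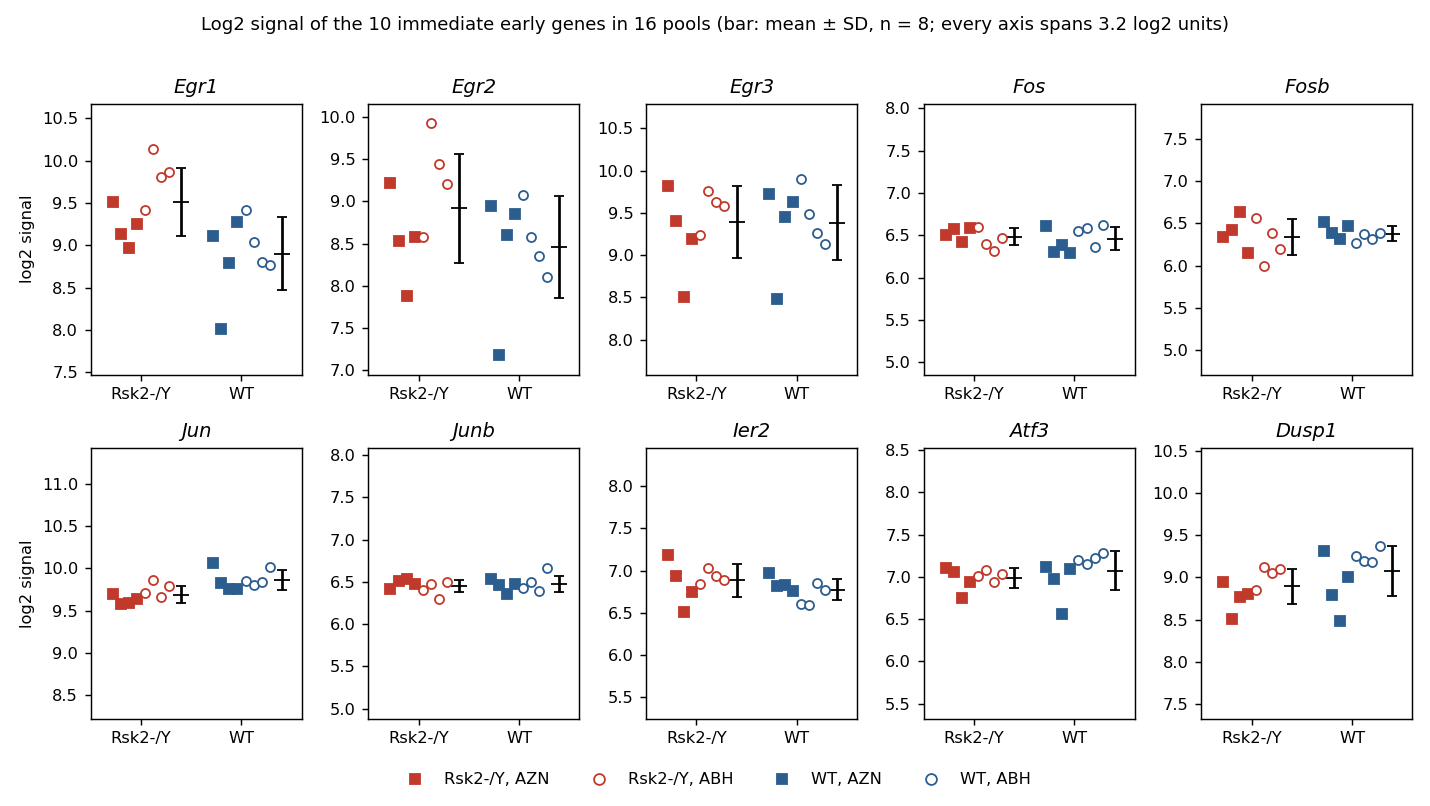
Log2 signal of each of the 10 genes in 16 pools, Rsk2-/Y left and WT right, squares for AZN and circles for ABH, with the mean and SD of 8 pools as bars; every vertical axis spans the same distance. The spread is widest for Egr1, Egr2 and Egr3, Egr1 points of Rsk2-/Y lie high against WT, and Jun points lie low.

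No member passed the test between genotypes. In limma, with Benjamini-Hochberg adjustment over all probe sets tested and calls made at an adjusted p under 0.1 with at least a 1.2-fold change, 0 of 10 members and 0 of 17215 genes were called (0.0%). The methods' t-test called 0 as well. Before adjustment, 680 genes had p under 0.05 in limma, and 2 of them were members, Egr1 higher and Jun lower. Over the 10 members, 5 differences lay above 0 and 5 below, with a median of -0.01, and the median of all genes was -0.02.

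Egr1, which encodes the best known EGR factor, had the largest genotype difference of the 10. Its log2 signal in Rsk2-/Y pools ran from 8.97 to 10.14 with a median of 9.47, against 8.004 to 9.41 with a median of 8.92 in WT pools. All 8 Rsk2-/Y pools lay above the WT mean and 5 lay above the highest WT pool, so the groups overlapped. The mean was 9.51 ± 0.40 in Rsk2-/Y pools and 8.90 ± 0.43 in WT pools (SD, n = 8 each). This is a difference of 0.61 (SE 0.19), or 1.53-fold, with an adjusted p of 0.911 in limma. By the exact two-sided permutation test of this gene alone, p was 0.00808 over 12870 arrangements and 0.00571 over the 4900 that keep the codes. One value tested alone does not allow for the number of genes on the array. In pooled tissue, fewer cells that use a gene and less RNA of it per cell cannot be told apart.

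The Egr1 difference had the same direction in both codes. In AZN the 4 Rsk2-/Y pools read 8.97, 9.14, 9.25 and 9.51, against 8.004, 8.79, 9.11 and 9.28 in the WT pools. These groups overlapped, the difference was 0.42 (SE 0.24, limma adjusted p = 0.9996), and 0 members and 0.0% of genes were called. The WT value of 8.004 is that of AZN_MolairesWT1, which lay far below the other WT pools. Without that pool the genotype difference over both codes was 0.48, the lowest with 1 pool left out. The AZN difference without it was not fitted. In ABH the 4 Rsk2-/Y pools read 9.42, 9.80, 9.86 and 10.14, against 8.77, 8.81, 9.04 and 9.41 in the WT pools. Here the groups did not overlap, though the nearest pools were only about 0.01 apart, and 8.09% of genes had no overlap in ABH. The difference was 0.80 (SE 0.17, limma adjusted p = 0.162), and 0 members were called there against 0.0232% of genes. The interaction of genotype and code was -0.38 (SE 0.32, limma adjusted p = 0.850), and 0 members and 0.0% of genes passed that test. With code as a block over all 16 pools, the adjusted p of Egr1 was 0.319, and 0 members were called against 0.00581% of genes.

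Jun, the main partner in AP-1, was the other member with a one-sided pattern. Its log2 signal in Rsk2-/Y pools ran from 9.58 to 9.86 with a median of 9.68, against 9.75 to 10.06 with a median of 9.83 in WT pools. All 8 Rsk2-/Y pools lay below the WT mean. In AZN all 4 Rsk2-/Y pools, at 9.58, 9.58, 9.63 and 9.70, lay below the 4 WT pools at 9.75, 9.75, 9.83 and 10.06, and 1.53% of genes had no overlap in that code. In ABH the groups overlapped. The mean was 9.69 ± 0.097 in Rsk2-/Y pools and 9.86 ± 0.115 in WT pools, a difference of -0.17 (SE 0.057, limma adjusted p = 0.995), which is under the 1.2-fold minimum. The exact two-sided permutation p of this gene alone was 0.00497, and 0.00245 within codes. Over all 16 pools, the genotypes overlapped for every member, and 0.0174% of genes had no overlap.

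None of the other 8 members reached an unadjusted p under 0.05 between genotypes. Egr2, which is also needed for hindbrain and Schwann cell development, averaged 8.92 ± 0.65 in Rsk2-/Y pools and 8.46 ± 0.61 in WT pools, a difference of 0.46 (SE 0.28), and of 0.28 without the WT pool AZN_MolairesWT1. It was 0.16 (SE 0.38) in AZN and 0.76 (SE 0.27) in ABH. Egr3 averaged 9.39 ± 0.42 in Rsk2-/Y pools and 9.38 ± 0.44 in WT pools, a difference of 0.0062 (SE 0.19). Fos, Fosb and Junb differed by 0.02, -0.04 and -0.03. Ier2 differed by 0.11 (SE 0.080) and Dusp1 by -0.18 (SE 0.12), each with a limma adjusted p of 0.9997.

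In ABH, the values of Atf3 and Dusp1 did not overlap between genotypes, with the Rsk2-/Y pools below the WT pools. Atf3 read 6.938, 7.01, 7.03 and 7.08 in Rsk2-/Y pools and 7.15, 7.19, 7.22 and 7.28 in WT pools of ABH, a difference of -0.20 (SE 0.054, limma adjusted p = 0.206). Dusp1 read 8.85, 9.05, 9.10 and 9.12 in Rsk2-/Y pools and 9.18, 9.19, 9.26 and 9.37 in WT pools of ABH, a difference of -0.22 (SE 0.073, limma adjusted p = 0.265). In AZN both genes overlapped, with differences of 0.02 for Atf3 and -0.14 for Dusp1. Neither gene was called in either code, and 8.09% of all genes had no overlap in ABH.

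**Figure D2:**
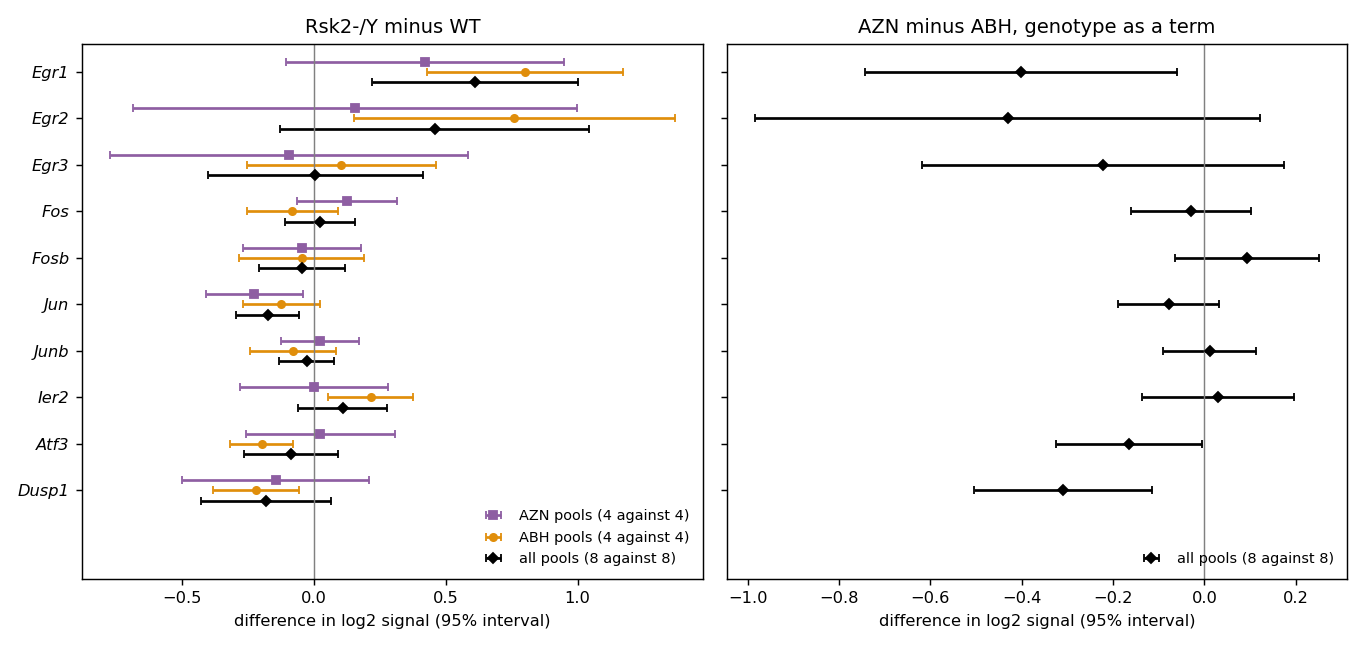
Differences in log2 signal with 95% intervals, left Rsk2-/Y minus WT in AZN pools, ABH pools and all pools, right AZN minus ABH with genotype as a term. On the left the points of Egr1 lie above 0 and those of Jun below 0 in all 3 sets of pools, with intervals that cross 0 for Egr1 in AZN and Jun in ABH, and on the right the intervals of Egr1, Atf3 and Dusp1 lie wholly below 0.

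The means of markers of some tissues leaned in the same direction between genotypes. Over all genes, 10384 of 17215 had a lower mean in Rsk2-/Y pools. All 11 dental epithelium markers had lower means in Rsk2-/Y pools, with a list mean of 10.21 ± 0.13 against 10.46 ± 0.19 in WT pools, and 12 of 13 skeletal muscle markers had higher means there, with a list mean of 8.84 ± 0.88 against 8.25 ± 0.49. None of these markers was called. In ABH the epithelium list mean ran from 10.24 to 10.32 in Rsk2-/Y pools and from 10.45 to 10.66 in WT pools, without overlap. Across the 8 AZN pools that list mean correlated with Egr1 at -0.40 and with Jun at 0.73, and across the 8 ABH pools at -0.88 and 0.73, values that hold the genotype difference as well as the spread within genotypes. All 6 osteoblast markers had higher means in Rsk2-/Y pools, with a list mean of 9.73 ± 0.38 against 9.43 ± 0.24 in WT pools. That list mean had an r with Egr1 of 0.67 across the ABH pools. All 6 endothelial markers had lower means, but their median difference was only -0.07, with 0 at an unadjusted limma p under 0.05. In either list 0 were called. In a fit with the epithelium and muscle list means and the code as terms, the genotype difference was 0.54 for Egr1, -0.093 for Jun, -0.024 for Dusp1, 0.11 for Atf3 and 0.25 for Ier2, so those of Jun and Dusp1 were smaller and that of Ier2 larger than without these terms, and that of Atf3 changed sign. The part of the other tissues was not tested.

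Egr2 and Egr3 moved with Egr1 across pools of the same genotype and code, and no other member was called. A slope on Egr1 was fitted for every other gene, with genotype and code as terms, and 5 of 17214 genes were called (0.029%). These 5 included 2 of the other 9 members. Egr2 changed by 1.57 log2 units per log2 unit of Egr1 (SE 0.12, limma adjusted p = 9.54e-06), and Egr3 by 1.04 (SE 0.14, limma adjusted p = 0.0113). Without AZN_MolairesWT1, a WT pool, Egr2 was called and Egr3 was not (slope 0.98, adjusted p = 0.121). They had the lowest and second lowest p of the whole array. The other genes called were Spry4 (slope 0.61, SE 0.090, adjusted p = 0.0210), an inhibitor of receptor tyrosine kinase signalling, Ptprn, which encodes a protein of secretory vesicles, and Trim9, which encodes a neuronal ubiquitin ligase (adjusted p = 0.0985 each).

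The values show the shared order of pools. AZN_MolairesWT1 was the lowest of the 16 pools for all 3 genes, at 8.004 for Egr1, 7.18 for Egr2 and 8.48 for Egr3. ABH_15A, an Rsk2-/Y pool, was the highest for Egr1 at 10.14 and for Egr2 at 9.93, and read 9.76 for Egr3. AZN_MolairesMutant3 was the lowest Rsk2-/Y pool for all 3, at 8.97 for Egr1, 7.88 for Egr2 and 8.51 for Egr3.

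After the mean of each genotype and code was subtracted, Egr1 correlated with Egr2 at r = 0.96 (Spearman rho 0.87) and with Egr3 at r = 0.90 (rho 0.85), over 16 pools. The exact permutation p, over the 331776 pairings within genotype and code, was 3.6e-05 for r and 9e-05 for rho with Egr2, and 4.8e-05 and 0.000295 with Egr3. Without the 2 pools farthest in Egr1, AZN_MolairesWT1 and AZN_MolairesWT3, r was 0.95 and 0.85. Egr2 and Egr3 correlated with each other at 0.95. In all, 9 pairs with Egr1 were computed, and r with the remaining 7 members ran from -0.34 for Fosb to 0.46 for Dusp1. Their slopes ran from -0.14 for Fosb to 0.23 for Dusp1 (SE 0.13, limma adjusted p = 0.646), none called.

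**Figure D3:**
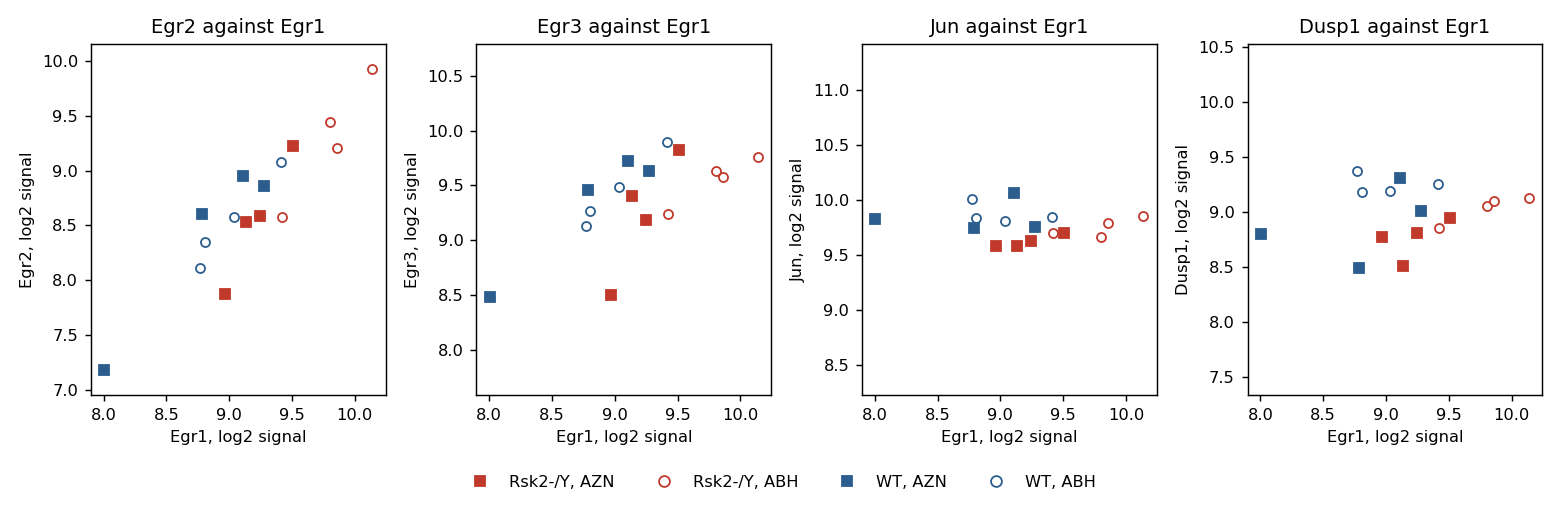
Log2 signals of Egr2, Egr3, Jun and Dusp1 against that of Egr1 in the 16 pools, red for Rsk2-/Y and blue for WT, squares for AZN and circles for ABH. Egr2 rises along with Egr1 in both genotypes, Egr3 does so along separate lines for the genotypes, and Jun and Dusp1 show no such line.

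Within single codes, with genotypes together, r between Egr1 and Egr2 depended more on the 2 farthest pools in AZN than in ABH. Across the 8 AZN pools, genotypes together, r between Egr1 and Egr2 was 0.89 (exact permutation p = 0.00771) and rho 0.67 (p = 0.0831). Without AZN_MolairesWT1 and AZN_MolairesMutant, the 2 farthest in Egr1, r was 0.39. That value still holds the genotype difference in Egr1, and r within genotypes was not computed without those pools. Across the 8 ABH pools r was 0.95 (exact permutation p = 0.000273) and rho 0.95 (p = 0.00114), and r was 0.89 without the 2 farthest pools. For Egr3, r was 0.72 in AZN (exact permutation p = 0.0350, rho 0.64) and 0.68 in ABH (p = 0.0694, rho 0.62), and 0.26 and 0.46 without the 2 farthest pools of each code. Of the 18 correlations with Egr1 within a code, that of Atf3 in ABH was the lowest, at r = -0.76 (exact permutation p = 0.0340, rho -0.76). It was -0.80 without the same pools. In AZN the r of Atf3 was 0.34 (exact permutation p = 0.393, rho 0.55), and 0.85 without the 2 farthest AZN pools. Fos, Fosb, Jun, Junb and Dusp1 were also below 0 in ABH, from -0.54 for Fosb to -0.36 for Junb, and Fosb and Jun in AZN. These values hold the genotype difference as well as the spread within genotypes. In ABH, the slope of Atf3 on Egr1 was -0.0083 (SE 0.11) in limma once genotype was a term. With genotype as a term, the limma slope of Egr2 was 1.55 (SE 0.18, adjusted p = 0.191) in AZN, where 0.0% of genes were called, and 1.61 (SE 0.17, adjusted p = 0.0542) in ABH, where 0.0116% were. The slope of Egr3 was 1.15 (SE 0.22) in AZN and 0.93 (SE 0.12) in ABH, called in neither.

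Outside the members, the genes most like Egr1 over the 16 pools, by Pearson's r after subtraction of the mean of each genotype and code, were Spry4 (0.92), Agap2 (0.90), Nptx2 (0.88), Nfia (0.88) and Sobp (0.87). NPTX2 is a neuronal pentraxin and NFIA a transcription factor. The most opposite were Smim11 (-0.89) and Ikbke (-0.88). Egr2 had the highest r of all 17214 genes and Egr3 the fourth highest, while 3 genes exceeded 0.9 and the 5th and 95th percentiles of all genes were -0.48 and 0.57. All 11 ERK feedback genes tested had a slope on Egr1 above 0, with a median of 0.36, and 1 was called. Over all genes, 8930 of 17214 had a slope above 0, with a median of 0.0046. Of 50 other immediate early genes, 40 had a slope above 0, with a median of 0.08 and 0 called. The largest of these slopes were those of Plk3, at 0.42 (SE 0.11, adjusted p = 0.337), and of the nuclear receptor gene Nr4a1, at 0.41 (SE 0.11, adjusted p = 0.339). All 9 dental mesenchyme markers had slopes above 0 (median 0.22, 0 called) and all 13 skeletal muscle markers below 0 (median -0.68, 0 called). All 6 endothelial markers also had slopes above 0 (median 0.24, 0 called). The mesenchyme list mean correlated with Egr1 at 0.73, with Egr2 at 0.80 and with Egr3 at 0.84, over the 16 pools after subtraction of the same means. AZN_MolairesMutant3 had the lowest mesenchyme list mean of all pools, 10.21, and the highest muscle list mean, 10.10. With the epithelium and muscle list means as terms, Egr2 was called (slope 1.45) and Egr3 was not (slope 1.05). The part of the mesenchyme in the shared movement was not tested.

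Unlike the EGR genes, the AP-1 genes did not show movement as 1 group. The low signals of Fos, Fosb and Junb leave little room for a shared movement to show. Fosb correlated with Jun at -0.19, with Junb at 0.07 and with Fos at 0.13. Fos correlated with Junb at 0.43 (rho 0.41, exact permutation p = 0.139 for r), with Dusp1 at 0.21 and with Atf3 at 0.25. Atf3 and Dusp1 correlated at 0.66. Jun correlated with Dusp1 at 0.74 (rho 0.64), with Junb at 0.60 (rho 0.55), with Atf3 at 0.55 (rho 0.53), with Fos at 0.51 (rho 0.35) and with Ier2 at 0.49 (rho 0.42), on the same scale over 16 pools and among 45 pairs of members. The exact permutation p was 0.00762 for r with Dusp1, 0.0317 with Junb, 0.135 with Atf3, 0.122 with Fos and 0.0151 with Ier2. Without AZN_MolairesWT and ABH_25A, the 2 pools farthest in Jun, r with Dusp1 was 0.47 and with Junb 0.30. In a limma fit of every gene on Jun, chosen after these values were seen, 0 genes were called (0.0%), and the adjusted p of Dusp1 was 0.363. At unadjusted p under 0.05 there were 2057 genes.

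**Figure D4:**
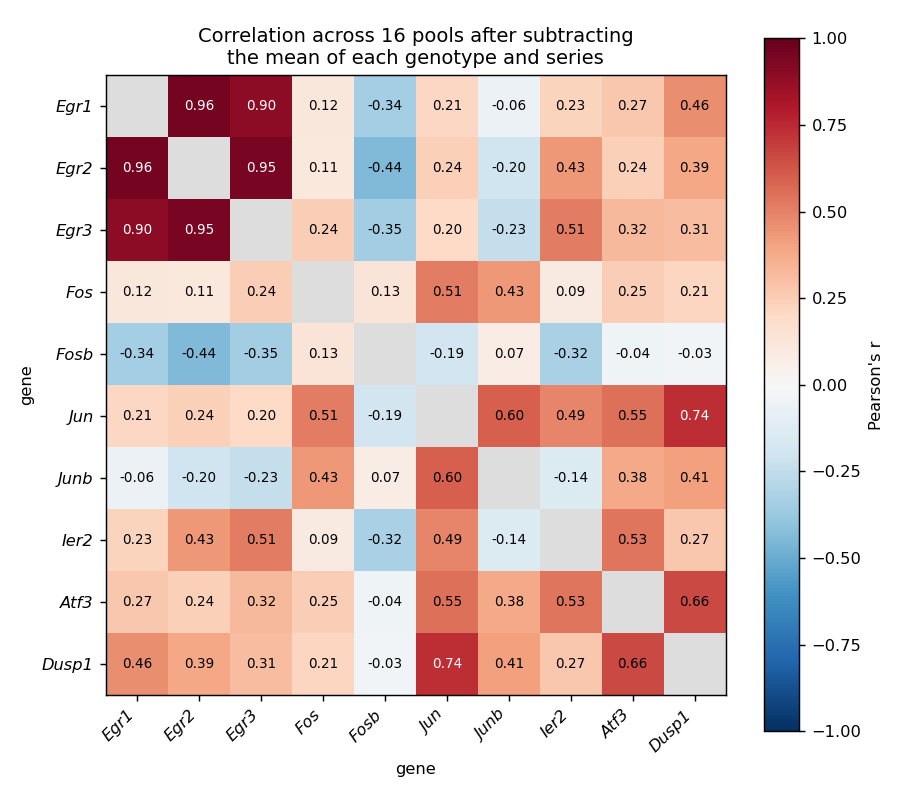
Pearson's r between each pair of the 10 genes across 16 pools, after the mean of each genotype and code was subtracted, from blue at -1 to red at 1. The 3 EGR genes form a block at 0.90 to 0.96, and Jun shows its highest value, 0.74, with Dusp1.

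Egr1 and Egr3 moved together within a genotype, yet the genotype difference was 0.61 for Egr1 and 0.0062 for Egr3, so the 2 were set against each other in the same pool. This comparison was chosen after the values were seen. Egr3 was taken because, in these same data, it moved with Egr1 and hardly differed between genotypes. That choice favours a clear separation of Egr1, so the p-values and ranks that follow do not allow for it and are descriptive only. The zero of such a difference has no meaning, as signals of separate probe sets are not on one scale, and only its change between pools is read. Egr1 minus Egr3 ran from -0.31 to 0.46 with a median of 0.18 in Rsk2-/Y pools, against -0.67 to -0.36 with a median of -0.47 in WT pools. The groups did not overlap, and the means were 0.12 ± 0.28 in Rsk2-/Y pools and -0.48 ± 0.11 in WT pools (SD, n = 8 each). When Egr3 was subtracted from every gene in turn, 1 of 17214 had no overlap between genotypes (0.00581%), and it was Egr1. The exact permutation p was 0.000155, the smallest that 12870 arrangements can give with both tails, and 0.000408 within codes.

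In limma, with the pool's Egr3 signal and the code as terms, Egr1 was 0.61 higher in Rsk2-/Y than in WT pools (SE 0.081, 95% interval 0.44 to 0.78, adjusted p = 0.0195). This was the lowest p of all genes in that fit, and 3 of 17214 genes were called (0.0174%), the others being Il17re and Etv5. Neither the adjusted p nor the rank of Egr1 allows for the choice of Egr3 from these data. Etv5, an ETS factor gene induced by FGF through ERK, was lower in Rsk2-/Y pools, at -0.62 and -0.53 for its 2 probe sets (SE 0.099 and 0.087, adjusted p = 0.0585 and 0.0688). Il17re, an interleukin 17 receptor gene, was lower by -0.31 (SE 0.047, adjusted p = 0.0452). Egr1 was called in all 16 fits that left out 1 pool, with adjusted p between 0.0036 and 0.0962. It was not called without the code term (adjusted p = 0.171), in AZN alone (difference 0.48, adjusted p = 0.999992, 0.0% of genes called) or with the epithelium and muscle list means as terms (0.53, adjusted p = 0.894). In ABH alone it was called (0.70, SE 0.066, adjusted p = 0.0383) with 0.029% of genes.

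Egr2 stood between the other EGR genes. With Egr2 in place of Egr3, Egr1 was 0.34 higher in Rsk2-/Y pools (SE 0.060, adjusted p = 0.104) and 0.0% of genes were called. Egr2 minus Egr3 averaged -0.47 ± 0.33 in Rsk2-/Y pools and -0.92 ± 0.17 in WT pools, with overlap and an exact permutation p of 0.000777. Egr1 minus Egr2 averaged 0.59 ± 0.29 in Rsk2-/Y pools and 0.44 ± 0.22 in WT pools, with an exact permutation p of 0.260. At equal Egr3, the difference of Egr2 was 0.45 (SE 0.095, limma adjusted p = 0.220), and it was called without AZN_MolairesWT2 (0.47, adjusted p = 0.0604), in a fit that called 136 probe sets against 4 with all pools.

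**Figure D5:**
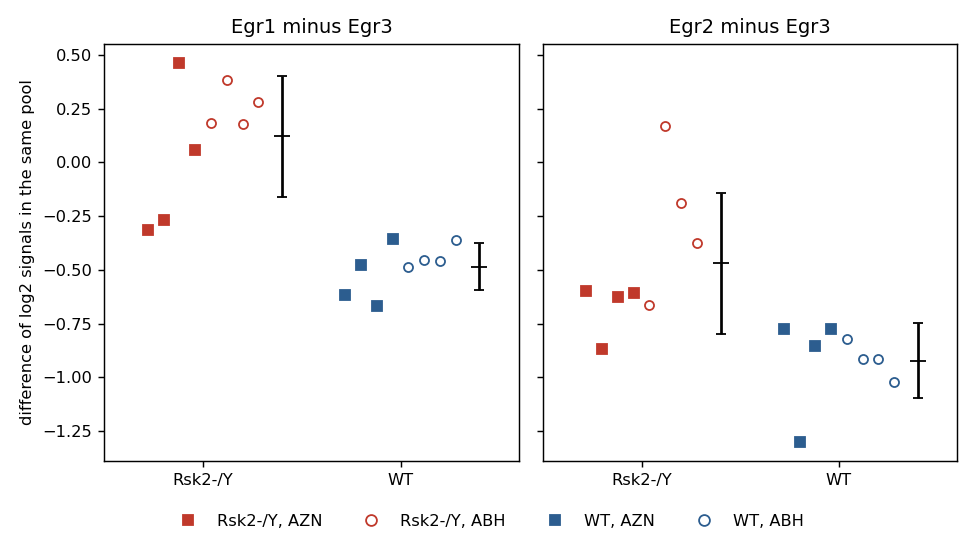
Log2 signal of Egr1 (left) and Egr2 (right) minus that of Egr3 in the same pool, Rsk2-/Y left of WT in each panel, squares for AZN and circles for ABH, with the mean and SD of 8 pools as bars. For Egr1 all 8 Rsk2-/Y pools, from -0.31 upward, lie above all 8 WT pools, which reach -0.36, and for Egr2 the groups overlap.

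The codes AZN and ABH differed over a large part of the array, and among the members Egr1 and Dusp1 passed the test. With genotype as a term, 16.1% of genes were called between AZN and ABH, and 10.3% of all genes were called lower in AZN, so 2 of 10 members called lower is near the background. Dusp1 averaged 8.83 ± 0.27 in AZN pools and 9.14 ± 0.15 in ABH pools (SD, n = 8 each), a difference of -0.31 (SE 0.092, limma adjusted p = 0.0142). It ran from 8.49 to 9.31 with a median of 8.80 in AZN, against 8.85 to 9.37 with a median of 9.15 in ABH, and 7 of 8 AZN pools lay below the ABH mean. Without AZN_MolairesWT2, a WT pool, its difference was -0.24 and under the fold minimum. Egr1 averaged 9.004 ± 0.46 in AZN pools and 9.41 ± 0.51 in ABH pools, a difference of -0.40 (SE 0.16, limma adjusted p = 0.0606). This call was lost when any 1 of 6 pools was left out (ABH_11A, AZN_MolairesWT1, AZN_MolairesMutant1, AZN_MolairesMutant3, ABH_15A or ABH_26A), with differences of -0.38 to -0.30 and adjusted p of 0.102 to 0.125. The codes overlapped for all 10 members, and 8.81% of genes did not overlap.

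Within genotypes, both genes were called among Rsk2-/Y pools, where 18.6% of genes were called, and neither among WT pools, where 13.7% were. Egr1 was at -0.59 (SE 0.15, limma adjusted p = 0.0264) among Rsk2-/Y pools and -0.21 (SE 0.24, adjusted p = 0.598) among WT pools, and the interaction given above, which did not pass, is the test of that difference. Dusp1 was at -0.27 (SE 0.10, adjusted p = 0.0841) among Rsk2-/Y pools and -0.35 (SE 0.14, adjusted p = 0.131) among WT pools. Atf3 differed by -0.17 (SE 0.076, adjusted p = 0.0957), below the fold minimum. Egr2 and Egr3 differed by -0.43 (SE 0.26) and -0.22 (SE 0.19), which without AZN_MolairesWT1 were -0.27 and -0.099, and without AZN_MolairesMutant3 that of Egr3 was -0.10. The differences of Fos, Fosb, Jun, Junb and Ier2 ran from -0.08 to 0.09.

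Other genes of the same response were called both ways between codes. Of 50 other immediate early genes, 30 had a higher mean in AZN and 20 a lower one. In all, 5 were called higher, among them the Kruppel-like factor genes Klf4 (0.44) and Klf2 (0.39), Jund (0.28) and Rhob (0.27), and 5 were called lower, among them the survival gene Mcl1 (-0.44), Nr4a2 (-0.43), Bhlhe40 (-0.41) and Errfi1 (-0.37), a feedback inhibitor of the EGF receptor. These 10 of 50 stand beside 16.1% of all genes called. Of 11 ERK feedback genes, 1 was called higher, Spred2 (0.31), and 4 were called lower, Dusp6 (-0.56), Etv1 (-0.54), Etv5 (-0.51) and Etv4 (-0.36). Of 15 upstream regulators and cofactors, 2 were called higher, Mrtfb (0.35) and Atf1 (0.32), and 4 were called lower, Rps6ka3 (-0.41), Rps6ka5 (-0.35), Elk4 (-0.32) and Nab2 (-0.31), a repressor of EGR1. Of 9 heat shock genes, 3 were called lower, Hspd1 (-0.41), Hspb1 (-0.40) and Hsph1 (-0.28), and 0 higher. All 13 skeletal muscle markers had a higher mean in AZN, 6 of them called, with list means of 8.87 ± 0.64 in AZN pools and 8.22 ± 0.75 in ABH pools. All 6 erythroid markers (3 called), all 6 osteoblast markers (2 called) and 5 of 6 neuron and Schwann cell markers (3 called) had a higher mean in AZN as well. The erythroid list mean was 8.87 ± 0.33 in AZN pools and 8.31 ± 0.47 in ABH pools. With the epithelium and muscle list means as terms, Egr1 was at -0.32 and Dusp1 at -0.21 and neither was called.

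Between genotypes, none of those genes was called. The largest differences among the other immediate early genes were those of Per1, a clock gene, at -0.21 (SE 0.086), and of Ptgs2, the inducible cyclooxygenase gene, at 0.20 (SE 0.091). Over these 50 genes the median was -0.03 and over the 9 heat shock genes -0.05, where Hspb1 was at -0.31 (SE 0.12) and Hspa1a at -0.27 (SE 0.064, limma adjusted p = 0.638). Among the ERK feedback genes, 9 of 11 had a lower mean in Rsk2-/Y pools, with a median of -0.06, beside 10384 of all 17215 genes. The largest of these differences were Etv5 at -0.52 (SE 0.18) and Etv4 at -0.42 (SE 0.18).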

How the data were processed

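Values were the log2 signals per probe set that the authors deposited, made with RMA in Expression Console (Affymetrix, version 1.3.1.187), which corrects background, equalises arrays and summarises probes. Nothing was normalized further. With arrays there is no count behind a value, and precision rests on how many arrays each group has. Signals near 5 lie close to background, and a log2 difference there understates a change. Of 35556 probe sets, 21789 pair with 1 symbol, and 18834 of these exceeded 5 in at least 1 sample, the study's minimum, and were tested. They hold 17215 genes, each read from its probe set with the highest mean. Members and gene lists were chosen with earlier results of these data known.

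The genotype comparison used limma (version 3.58.1, R 4.3.3; lmFit, eBayes, two-sided, Benjamini-Hochberg), called at the study's false discovery rate under 0.1 and 1.2-fold minimum. Codes were compared with genotype as a term. Slopes on Egr1 used genotype and code as terms and no fold minimum. Permutation tests in Python 3.11.15 were exact and two-sided. p-values set a difference against the spread between pools, taken as independent, and in limma that spread is moderated by a prior from all genes. The limma step was tested on simulated data with known changes. Named were all members, up to 4 called genes of each list per direction or the 2 largest where none was called, and the 5 most and 2 least correlated with Egr1. Alternatives were filters, centring, array weights, the variance prior, covariates, Student's t-test, codes apart and each pool left out. The fits at equal Egr3 or Egr2, the fit on Jun and one over all probe sets were added after the values were seen.

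Same-numbered AZN pools did not deviate together across genes (correlations of -0.03 and -0.0033), so the numbers were not used as pairs. The AZN pools without a number, AZN_MolairesMutant and AZN_MolairesWT, correlated at 0.68, the highest of the 16 pairs of AZN pools, and whether they share a litter or preparation is not stated. Pools were still treated as independent.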

Additional observations from a re-analysis of the deposited data

Results flagged for a closer look

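In the 60 sets of pools examined (the 2 genotypes and the 4 sets of genotype and code, for each of the 10 genes), 2 held a pool far from the rest, and chance alone gives about 1 in 20. Egr1 read 8.004 in AZN_MolairesWT1, while the other 7 WT pools lay between 8.77 and 9.41. Atf3 read 6.56 in AZN_MolairesWT2, while the other 7 WT pools lay between 6.97 and 7.28.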

How the results depend on the processing

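No member was called between genotypes in any alternative, and none in the interaction. Between AZN and ABH, 1 member was called with no genotype term and by the equal-variance t-test, 0 with epithelium and muscle list means as terms and among WT pools, and 3 with array weights, where Egr2 was added (-0.54, adjusted p = 0.0863), and leaving out 1 pool gave 1 to 2. Moving with Egr1, 1 was called with no genotype term, in ABH alone and with the list means as terms, and 0 in AZN alone, and leaving out 1 pool gave 1 to 2. Without the code term 1274 probe sets moved with Egr1, against 5 with it. At equal Egr3, 0 were called with no code term, with Egr2 in its place, in AZN alone and with the list means as terms, 2 were called with array weights, and leaving out 1 pool gave 1 to 2. The cause of these changes was not tested, beyond there being fewer pools in the fits of 1 code or genotype.

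Differences near 0 changed sign. Between genotypes, AZN alone gave -0.093 for Egr3, 0.024 for Junb and 0.025 for Atf3, ABH alone gave -0.082 for Fos, array weights gave -0.039 for Fos, and the list means as terms gave 0.0055 for Junb and 0.11 for Atf3. Leaving out 1 pool gave -0.12 to 0.13 for Egr3, -0.0018 to 0.047 for Fos, -0.087 to 0.0037 for Fosb and -0.044 to 0.00041 for Junb. Between AZN and ABH, Rsk2-/Y pools alone gave 0.075 for Fos and -0.078 for Ier2, WT pools alone gave -0.039 for Junb, and leaving out 1 pool gave -0.011 to 0.042 for Junb and -0.015 to 0.088 for Ier2.

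Slopes on Egr1 of Fos were 0.011 with no genotype term, 0.012 with no code term, 0.10 in AZN alone, 0.13 with the list means as terms, 0.0028 with arrays centred and -0.12 to 0.068 with 1 pool left out. No genotype term gave slopes of -0.090 for Jun, -0.033 for Atf3 and -0.013 for Dusp1, ABH alone gave -0.043 for Ier2 and -0.0083 for Atf3, and the list means gave 0.045 for Junb, which lay at -0.065 to 0.012 with 1 pool left out. At equal Egr3, Egr2 in its place gave 0.0066 for Fosb, ABH alone -0.070 and array weights -0.039 for Fos, AZN alone 0.021 for Junb and 0.039 for Atf3, and the list means 0.0057 for Junb and 0.11 for Atf3. With 1 pool left out these were -0.0064 to 0.052 for Fos and -0.045 to 0.0025 for Junb.

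With code and the same-numbered AZN pools as a block, 0 members were called between genotypes and 2 moved with Egr1, so the block changed no call. It did not pair the AZN pools without a number, which correlated at 0.68, so it cannot test their dependence. Low signals such as those of Fos, Fosb and Junb leave less room above background for a difference to show.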
